A study of Mus musculus with 4 samples.

Results

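Glycolysis and hypoxia response genes were compared between cultured astrocytes of 4 brain regions of the mouse. The list holds 33 genes, and a gene was taken up where the array's annotation gives it at least 1 probe set with no other gene name. By this rule 30 of the 33 were analysed, out of 12394 genes in all: 14 glycolytic enzymes, 3 glucose and lactate transporters and 13 genes of the hypoxia response. Eno1, Gpi1 and Bnip3l were not analysed here; for Bnip3l every probe set found also bears the name of its pseudogene. The 30 genes were read by 63 of the 22690 probe sets.

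The 4 groups were primary astrocytes from the subventricular zone (SVZ), ventral mesencephalon (VM), olfactory bulb (OB) and hippocampus (HC) of CD-1 mice, an outbred stock, at postnatal day 3; all were grown in DMEM, 10% serum, and the labels name no treatment. Each region was measured once, on 1 Affymetrix array of RNA from tissue pooled over pups, so the arrays carry no replicate, no p-value was computed and every difference below describes these 4 cultures. The series text speaks of 4 littermate pups and then of 3 pups pooled, which is not settled here. Culture in serum and the shaking and replating that enrich astroglia can leave a mixed population, and in such bulk RNA more cells of a type and more RNA per cell cannot be told apart.

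Glycolysis turns glucose into pyruvate through a chain of cytosolic enzymes, and lactate dehydrogenase turns pyruvate into lactate, which astrocytes release through monocarboxylate transporters and are widely held to pass to neurons. When oxygen is short, the transcription factor subunit HIF-1 alpha escapes prolyl hydroxylation and raises many of these enzymes together with genes of vessel growth, mitophagy and collagen processing. Astrocytes are also the main glycogen store of the brain. Several of the enzymes below are HIF targets themselves, so the enzyme and hypoxia groups are a division by function and not by control.

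Signal is the deposited intensity on a linear scale. Values below the median of all signals, 122.1, were raised to that floor before taking log2, and a fold against such a value is given as "at least". A call of higher in 1 region means a signal at least 2-fold above that of each of the other 3, and a call of lower at least 2-fold below each; a gene was said to span 2-fold when its highest and lowest regions differed that much. Probe sets of the same gene differed by a noise of 0.16 per array (median-based SD, log2, 1972 genes), or 1.17-fold for 1 SD of the difference between 2 arrays. These probe sets were read on the same arrays. The noise thus covers only part of the measurement: a shift common to a whole array and the spread between cultures are not in it. The 2% trimmed means of the arrays were 400.1 to 400.2. The HC array had the lowest 99th percentile of signal, 5619 against 6863 to 7377, and the most probe sets above the floor, 11835 against 11144 to 11207. The signal ratio of the 3 prime to the 5 prime probe set was 0.86 to 0.92 for Gapdh and 1.27 to 1.49 for beta-actin. All 18 hybridisation controls were brighter on the SVZ array than on the HC array, by 1.55- to 1.86-fold.

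The main pattern was a group of hypoxia response genes that were highest in the VM culture, led by Bnip3 and Adm, together with Hif1a itself. Of the 14 enzymes, 7 spanned 2-fold or more by their main probe sets, while Hk1 and the others spanned less. Those 7 were Hk2, Pfkfb3 and the subunits of phosphofructokinase and lactate dehydrogenase. The 3 transporters also spanned 2-fold or more. Ldhb was highest in the SVZ, Slc2a1 and Pfkfb3 were lowest in the OB and Ppp1r3c stood out in the HC. All 30 genes were above the floor on at least 1 array and 27 on all 4. Of the 30, 22 spanned 2-fold or more, against 31% of all 7988 genes above the floor. Of the 30, 8 were called in 1 region, against 10.1% of all genes. None of the 8 was called higher in the OB, where 1.87% of all genes were, or lower in the HC, where 0.488% were. Among the 27 on all arrays, 20 spanned 2-fold and 7 were called, beside 26.7% and 6.08% of the 6049 genes above the floor on all 4 arrays. The median span was 3.65-fold for the hypoxia genes, 2.04-fold for the enzymes and 1.61-fold for all genes.

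**Figure D1:**
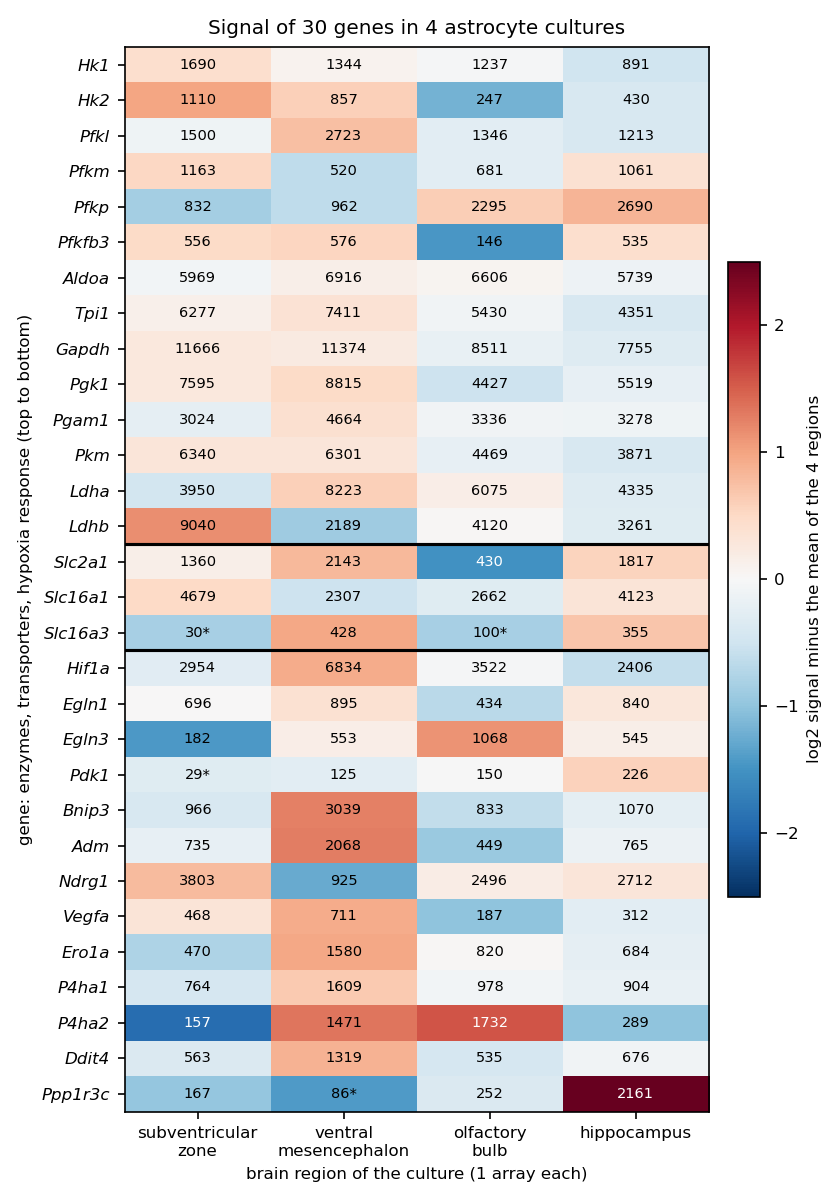
Signal of the 30 genes (rows: enzymes, transporters and hypoxia response genes from top to bottom) in the 4 cultures (columns, 1 array each). Numbers are deposited signals, an asterisk marks a signal below the floor of 122.1, and colour is the floored log2 signal minus the gene's mean over the 4 regions. The column of the VM is red for most hypoxia genes, and the darkest cell is Ppp1r3c in the HC at 2161.

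In the VM 8 of the 13 hypoxia genes had their highest signal, against 20% of all genes. Bnip3 and Adm were called higher there, where 1.56% of all genes were, and Ndrg1 was called lower, where 0.563% were. Over the 13 genes the median difference, a gene's log2 signal less its average in the other 3 regions, was 1.16 in the VM, -0.08 in the OB, -0.20 in the HC and -0.47 in the SVZ. Over all genes above the floor these medians lay between -0.06 and 0.01. In pairs, 8 of the 13 were at least 2-fold higher in the VM than in the SVZ, 5 than in the OB and 6 than in the HC, where 4.97%, 6.46% and 6.77% of all genes were; 1, 2 and 2 were as much lower in it than in those regions, where 5.45%, 5.53% and 9.43% of all genes were. The 3 pairs share the VM array. Over all 30 genes, 17 were highest in the VM, 8 in the SVZ (all genes 23.3%), 3 in the HC (28%) and 2 in the OB (28.7%).

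**Figure D2:**
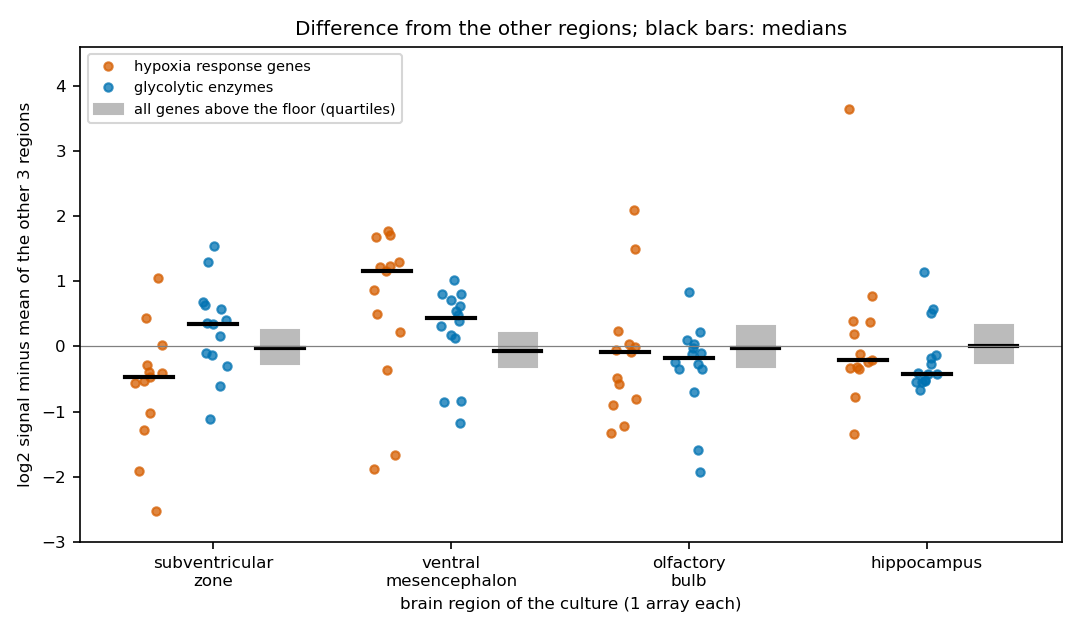
Difference of log2 signal from its average in the other 3 regions (vertical axis) for each culture (horizontal axis, 1 array each). Points are the 13 hypoxia response genes and the 14 glycolytic enzymes, grey boxes the quartiles of the 7988 genes above the floor, and black bars the medians. The hypoxia median is 1.16 in the VM and below 0 in the other regions, and the enzyme medians run from -0.42 to 0.44.

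Bnip3 encodes a mitochondrial outer membrane protein that marks mitochondria for removal. Its signal was 3039 in the VM, against 965.6 in the SVZ, 833.1 in the OB and 1070.3 in the HC. The VM thus stood 2.84-fold above the next region, while the other 3 lay within 1.28-fold of each other. Adm, the precursor of the vasodilator peptide adrenomedullin, read 2068 in the VM, 735.2 in the SVZ, 448.6 in the OB and 764.7 in the HC. Here too 1 culture was apart, by 2.70-fold from the next, with the OB lowest.

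A further set had the same high region without reaching 2-fold over the next. Ero1a, the oxidase that drives disulphide formation in the endoplasmic reticulum, read 1580.2 in the VM, 470.3 in the SVZ, 820.4 in the OB and 684.1 in the HC (1.93-fold over the next). Its 2 other probe sets were also highest there, and with the mean of its probe sets it was called, at 2.53-fold. Ddit4, which restrains the growth kinase mTORC1 under stress, read 1319 in the VM, 563.2 in the SVZ, 535.2 in the OB and 675.8 in the HC (1.95-fold over the next). P4ha1, a catalytic subunit of the collagen prolyl hydroxylase, read 1609 in the VM, 764.2 in the SVZ, 978.2 in the OB and 903.8 in the HC. Vegfa, the main vessel growth factor, read 711.4 in the VM, 467.7 in the SVZ, 186.9 in the OB and 312.3 in the HC. All of these were lowest in the SVZ or the OB. A second probe set of Vegfa was above the floor only in the SVZ (128.2) and the VM (154.5).

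Hif1a, the oxygen-regulated subunit of the factor, was itself highest in that culture: 6834 in the VM, 2954 in the SVZ, 3522 in the OB and 2406 in the HC. It was 1.94-fold above the next region, and its 2 other probe sets above the floor had the same highest and lowest regions, one of them reading 1216 in the VM and 352.3 to 566.3 elsewhere. HIF-1 alpha is known to be controlled mainly through protein stability, and protein was not measured here. The prolyl hydroxylases that mark it for breakdown, Egln1 and Egln3, are HIF targets and differed in their order. Egln1 read 895.2 in the VM, 840.2 in the HC, 696.5 in the SVZ and 434.0 in the OB. By this probe set the VM and the HC lay within the noise of each other and the OB was lowest. Its second probe set read 525.2 in the VM, 354.7 in the HC, 341.9 in the SVZ and 336.8 in the OB. There the VM was highest and the other regions lay within the noise of each other. Egln3 read 182.2 in the SVZ, against 552.9 in the VM, 1068 in the OB and 545.0 in the HC, and was called lower in the SVZ (2.99-fold under the next), as were 1.01% of all genes. With a floor at the 70th percentile this gap was 1.51-fold.

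Other hypoxia targets went other ways. Ndrg1, a stress-responsive protein that hypoxia induces in many cell types, read 924.9 in the VM, against 3803 in the SVZ, 2496 in the OB and 2712 in the HC. It was 2.70-fold under the next region, so the culture with the highest Bnip3 and Adm had the lowest Ndrg1; all 5 of its probe sets were lowest there, and 4 of the 5 highest in the SVZ. P4ha2, the other inducible collagen prolyl hydroxylase subunit, read 1732 in the OB and 1471 in the VM, against 289.3 in the HC and 156.8 in the SVZ. These form a high and a low pair of cultures, 5.08-fold apart, and P4ha2 had a span of 11.0-fold. Pdk1, the kinase that holds pyruvate back from the mitochondria, was near the floor throughout: 226.2 in the HC, 150.5 in the OB, 125.2 in the VM and below the floor in the SVZ. Its span was at least 1.85-fold.

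Ppp1r3c, which brings protein phosphatase 1 to glycogen and so favours glycogen synthesis, had the widest span of the 30 genes. It read 2161 in the HC, against 166.9 in the SVZ, 85.9 in the VM and 252.1 in the OB. The HC was 8.57-fold above the next region and at least 17.7-fold above the VM, or 4.33-fold above the next with the mean of its 2 probe sets, and the gene was called higher there, as were 2.49% of all genes. Its second probe set was above the floor only in the HC (267.6).

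**Figure D3:**
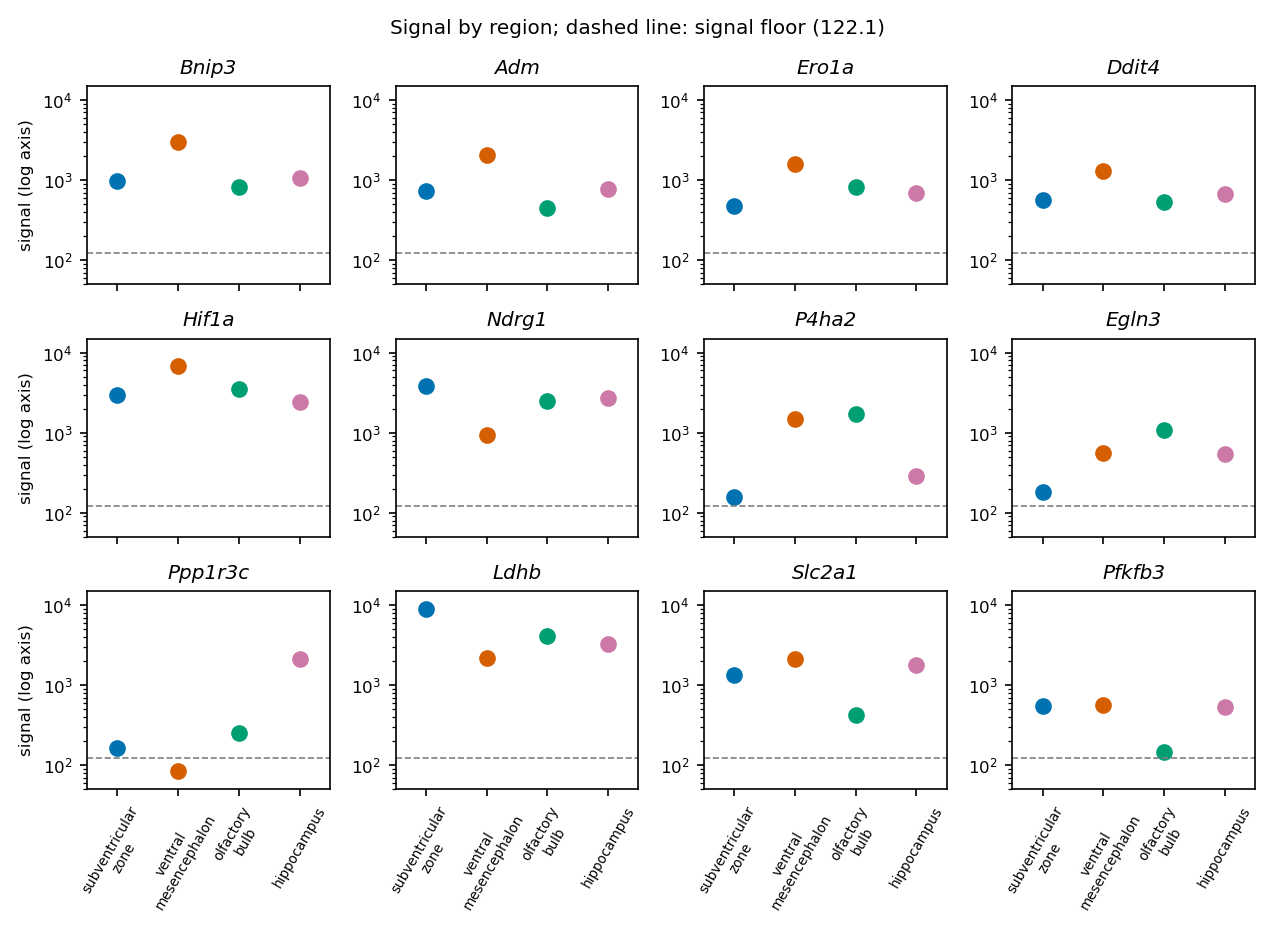
Signal (vertical axis, log scale) of 12 genes in the 4 cultures (horizontal axis, 1 point per array); the dashed line is the floor of 122.1. Bnip3, Adm, Ero1a, Ddit4 and Hif1a have their highest point in the VM, Ndrg1 and Ldhb their lowest, Ppp1r3c is high only in the HC, and Slc2a1 and Pfkfb3 are low in the OB.

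HIF binds a short core in DNA, and 6 promoters are shown so that this core can be read in them: those of 5 of the 8 hypoxia genes that were highest in the VM and, for contrast, that of Ppp1r3c. Promoter windows run from 250 bases before to 50 after a gene's start and come from RefSeq, build GRCm38.p6; 29 of the 30 genes had at least 1, and Ndrg1 was not matched. The cores searched were ACGTG and GCGTG on both strands (CACGT and CACGC on the other), with overlapping matches allowed, and they are in capitals below. Ppp1r3c was highest in the HC.
Bnip3, chr7:138909457-138909756, minus strand: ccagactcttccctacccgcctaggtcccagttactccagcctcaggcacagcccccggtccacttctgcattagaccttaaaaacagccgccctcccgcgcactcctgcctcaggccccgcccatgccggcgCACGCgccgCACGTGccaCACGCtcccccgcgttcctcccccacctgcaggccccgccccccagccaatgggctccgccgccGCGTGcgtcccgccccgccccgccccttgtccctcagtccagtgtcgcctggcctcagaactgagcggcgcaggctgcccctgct
Adm, chr7:110627407-110627706, plus strand: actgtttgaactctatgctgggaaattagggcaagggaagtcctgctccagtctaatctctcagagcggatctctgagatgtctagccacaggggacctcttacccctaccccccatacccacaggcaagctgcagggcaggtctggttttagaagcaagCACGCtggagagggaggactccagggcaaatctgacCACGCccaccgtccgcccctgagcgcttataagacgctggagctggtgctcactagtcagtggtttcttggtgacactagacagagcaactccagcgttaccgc
Ero1a, chr14:45318523-45318822, minus strand: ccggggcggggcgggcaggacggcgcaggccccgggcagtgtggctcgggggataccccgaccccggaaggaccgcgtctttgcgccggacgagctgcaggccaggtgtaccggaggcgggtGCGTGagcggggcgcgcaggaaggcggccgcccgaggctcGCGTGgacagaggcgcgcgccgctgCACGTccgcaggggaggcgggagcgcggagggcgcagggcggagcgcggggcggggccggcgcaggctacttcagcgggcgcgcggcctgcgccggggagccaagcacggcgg
Ddit4, chr10:59951721-59952020, minus strand: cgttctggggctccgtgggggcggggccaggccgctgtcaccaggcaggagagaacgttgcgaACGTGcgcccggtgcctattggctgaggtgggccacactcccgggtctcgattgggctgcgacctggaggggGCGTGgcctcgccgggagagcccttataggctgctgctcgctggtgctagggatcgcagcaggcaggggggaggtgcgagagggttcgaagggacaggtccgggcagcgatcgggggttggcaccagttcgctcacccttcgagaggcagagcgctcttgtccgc
P4ha1, chr10:59323046-59323345, plus strand: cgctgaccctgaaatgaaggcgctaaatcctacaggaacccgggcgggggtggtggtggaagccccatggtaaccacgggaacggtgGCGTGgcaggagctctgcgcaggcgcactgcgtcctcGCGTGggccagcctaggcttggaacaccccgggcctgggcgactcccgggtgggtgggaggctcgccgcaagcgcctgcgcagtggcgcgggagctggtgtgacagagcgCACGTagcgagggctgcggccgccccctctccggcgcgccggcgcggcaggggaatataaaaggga
Ppp1r3c, chr19:36736555-36736854, minus strand: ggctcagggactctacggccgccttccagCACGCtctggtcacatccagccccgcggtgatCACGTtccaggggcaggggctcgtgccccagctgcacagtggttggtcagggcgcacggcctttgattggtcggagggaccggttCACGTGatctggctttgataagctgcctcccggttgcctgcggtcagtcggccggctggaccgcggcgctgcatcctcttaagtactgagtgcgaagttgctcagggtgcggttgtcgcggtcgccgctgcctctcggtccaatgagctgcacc

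The Bnip3 window held the core in 4 separate stretches, Ero1a, P4ha1 and Ppp1r3c in 3 each, and Adm and Ddit4 in 2 each. At least 1 core stood in 82.5% of the 40 windows of the 29 genes and in 43.8% of all 32851 windows. By gene, over any window, it stood in 28 of 29 of these genes and in 61.6% of the 9888 genes of the array with a window; Tpi1 was the one without it. ACGTG alone stood in 10 of 12 hypoxia genes and 10 of 14 enzymes, and in 26.9% of the array's genes. GCGTG alone stood in 10 of 12 hypoxia genes and 9 of 14 enzymes, and in 50.2% of the array's genes. The core was thus in the windows of genes that were high in the VM and of genes that were not. Base composition, which sets how often such a core occurs, was not matched.

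Among the transporters, the glucose carrier and the lactate carriers differed in different directions. Slc2a1 encodes GLUT1, the glucose transporter of astrocytes and brain vessels. It read 430.2 in the OB, against 1359.9 in the SVZ, 2143 in the VM and 1817 in the HC, and was called lower there (3.16-fold under the next), as were 1.55% of all genes. Its 2 other probe sets had the same highest and lowest regions. Slc16a1, the monocarboxylate transporter MCT1, read 4679 in the SVZ, 4123 in the HC, 2662 in the OB and 2307 in the VM, a span of 2.03-fold. Slc16a3, the transporter MCT4 of glycolytic cells and a HIF target, read 428.0 in the VM and 355.0 in the HC and was below the floor in the OB (100.2) and the SVZ (30.1). The VM thus had the highest Slc16a3 and the lowest Slc16a1. Its Slc16a1 lay within the noise of the OB, and its Slc16a3 was 1.21-fold above the HC. Slc16a3 was also called lower in the SVZ, 3.33-fold under the next, when the floor was set at the 25th percentile.

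**Figure D4:**
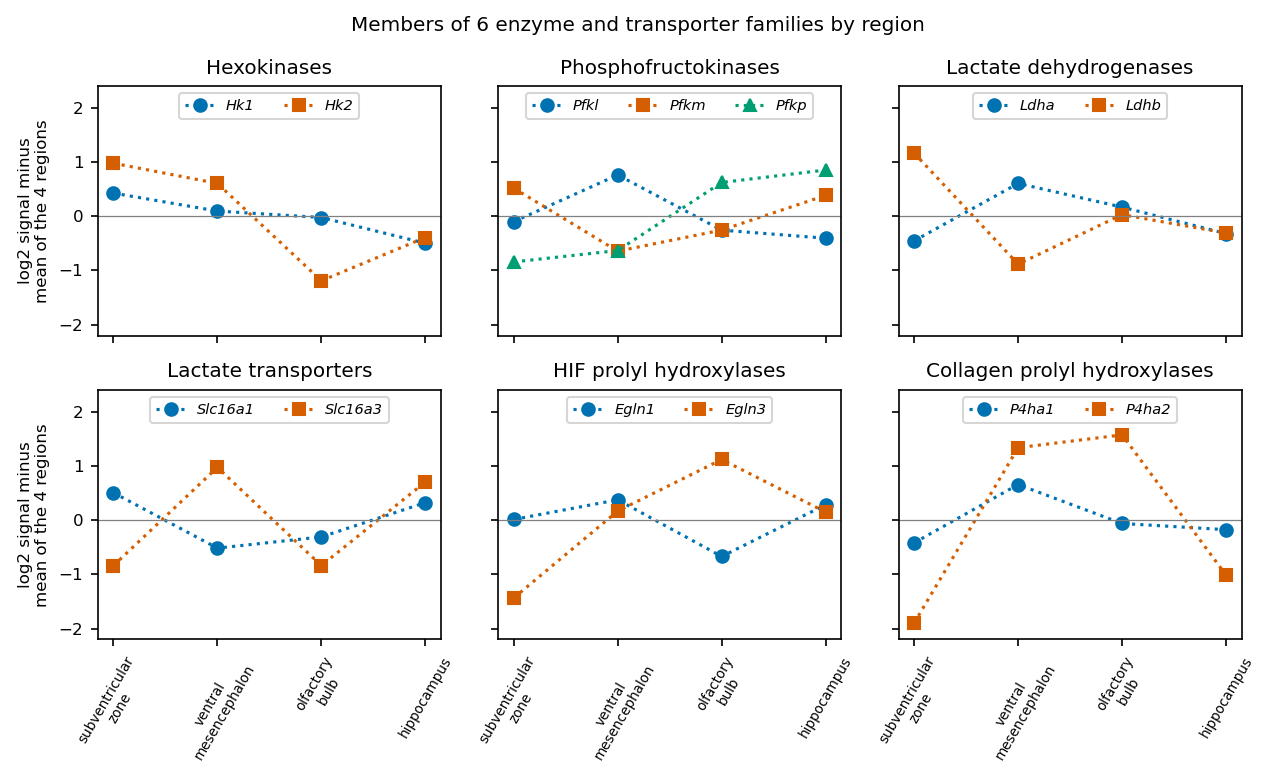
Log2 signal minus the gene's mean over the 4 regions (vertical axis) for the members of 6 families in the 4 cultures (horizontal axis, 1 array each; dotted lines only join points of a gene). Members of a family differ in their order: Ldha is highest in the VM and Ldhb in the SVZ, and in the VM Pfkl has its highest point while Pfkm has its lowest.

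Of the 14 enzymes, 7 spanned 2-fold or more, against 31% of all genes, and 2 were called, a share close to the 10.1% of all genes. Those that spanned were Hk2, Pfkfb3 and the subunits of phosphofructokinase and lactate dehydrogenase. The other 7 spanned less: Gapdh (glyceraldehyde-3-phosphate dehydrogenase, by 0.59 on the log2 scale), Aldoa (aldolase) 1.21-fold, Pgam1 (phosphoglycerate mutase) 1.54-fold, Pkm (pyruvate kinase) 1.64-fold, Tpi1 (triosephosphate isomerase) 1.70-fold, the hexokinase Hk1 1.90-fold and Pgk1 (phosphoglycerate kinase) 1.99-fold. Pgk1 reached 2.07-fold by its second probe set and 7.69-fold by another, which read 980.8 in the OB where the first read 4427; all 3 were lowest there. Gapdh, often taken as a reference gene, read 11666 in the SVZ, 11374 in the VM, 8511 in the OB and 7755 in the HC. It was read only by the array's Gapdh control probe sets, since its other probe sets carry further names.

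The hexokinases, which trap glucose in the cell, shared a high region. Hk2, the inducible form, read 1109.7 in the SVZ, 857.4 in the VM, 429.7 in the HC and 247.3 in the OB, a span of 4.49-fold. Hk1, the housekeeping form, read 1689.8 in the SVZ and 890.9 in the HC, with 1344 and 1237 in the VM and the OB between them.

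The phosphofructokinase subunits, which form the main control step of glycolysis, differed in their order of regions. Pfkl, the liver-type subunit, read 2723 in the VM, 1500.1 in the SVZ, 1346 in the OB and 1213 in the HC. Pfkm, the muscle-type subunit, read 1163 in the SVZ, 1061 in the HC, 681.3 in the OB and 520.4 in the VM, with the SVZ and the HC within the noise of each other. Pfkp, the platelet-type subunit, read 2690.4 in the HC, 2295 in the OB, 962.0 in the VM and 831.6 in the SVZ. The upper and the lower pair of Pfkp were 2.39-fold apart by this probe set. Its second probe set read 494.1 in the HC, 247.9 in the OB, 213.8 in the VM and 140.4 in the SVZ. There the OB lay within the noise of the VM, so no such pair formed. Pfkfb3, which makes the activator fructose-2,6-bisphosphate, read 146.0 in the OB, against 555.7 in the SVZ, 576.0 in the VM and 535.4 in the HC. It was called lower in the OB, 3.67-fold under 3 regions that lay within the noise of each other. It fell short of the call at 1.91-fold with the mean of its probe sets, the second of which was below the floor on every array, and at 1.49-fold with a floor at the 70th percentile.

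The lactate dehydrogenase subunits were opposed between 2 regions. Ldhb, the heart-type subunit, read 9040 in the SVZ, against 2189 in the VM, 4120 in the OB and 3261 in the HC. It was called higher in the SVZ (2.19-fold over the next), as were 1.28% of all genes, and its 3 other probe sets had the same highest and lowest regions, with spans of 5.34- to 6.36-fold. Ldha, the muscle-type subunit and a HIF target, read 8223 in the VM, 6075 in the OB, 4335 in the HC and 3950 in the SVZ. Ldha was thus 2.08-fold higher in the VM than in the SVZ, and Ldhb 4.13-fold higher in the SVZ than in the VM.

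As a group the enzymes had a median difference from the other regions of 0.44 in the VM, 0.35 in the SVZ, -0.18 in the OB and -0.42 in the HC. Of the 14, 7 were highest in the VM and 6 in the SVZ, where 20% and 23.3% of all genes were, and 6 were lowest in the HC, where 19.4% were. Several of the highest regions lay within the noise of the next, such as Pkm (1.01-fold), Gapdh (1.03-fold), Pfkfb3 (1.04-fold) and Aldoa (1.05-fold). Others lay beyond it, such as Pfkl (1.82-fold) and Ldhb (2.19-fold). The HC median was -0.079, and that of the SVZ 0.17, after quantile normalization, which removes the lower upper range of the HC array.

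Further genes of these pathways outside the 30 were counted from 3 lists. Of 33 other hypoxia and HIF genes above the floor, 11 were called in 1 region, where 10.1% of all genes were, and 18 were highest in the VM, where 20% were. Some of the 18 were near the floor, with VM signals such as 151.1, 158.5 and 167.3. The median difference of the 33 in the VM was 0.45, against 1.16 for the 13 hypoxia genes above. Called higher in the VM were 2 of them, where 1.56% of all genes were. Fam162a, a mitochondrial protein induced by HIF, read 4402 in the VM and 1352 to 1703 elsewhere (2.58-fold over the next). Angptl4, a secreted lipase inhibitor, read 1003 in the VM and 177.5 to 295.7 elsewhere (3.39-fold). Called lower in the OB were Hmox1 (heme oxygenase, 4.36-fold under the next), Wsb1 (4.14-fold), Tgfb3 (3.49-fold), the transcription factor gene Bhlhe40 (2.65-fold), Ak4 (at least 2.04-fold) and Igfbp3 (at least 8.01-fold), where 1.55% of all genes were. Igfbp3 was also called higher in the SVZ, at 6151. The collagen cross-linking enzyme Lox was called lower in the SVZ, at 654.9 against 2327 to 10067. In the HC Car9, a carbonic anhydrase, was called higher (290.7, at least 2.38-fold) and the transcriptional cofactor Cited2 lower (2.10-fold). Of 13 other glycolysis genes above the floor 2 were called, again close to the 10.1% of all genes: Aldoc, the astrocyte aldolase, was lower in the VM (563.7 against 1594 to 5221), and the glucose transporter Slc2a3 was lower in the OB (at least 2.51-fold). None of 9 glycogen genes above the floor was called, beside 10.1% of all genes, so the count says little. Of these 9, 4 were highest in the HC, where 28% of all genes were, and 1 was lowest there, where 19.4% were. Pygl, a glycogen phosphorylase, read 502.3 in the HC, 1.87-fold over the next. Phkg1, a phosphorylase kinase subunit, read 194.3 in the HC and was below the floor elsewhere, at least 1.59-fold over it. Gys1 went the other way and had the widest span of the 9, 3.22-fold. It read 154.1 in the HC, 214.6 in the OB, 290.6 in the SVZ and 495.9 in the VM.

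Markers of other cells differed between the cultures. The summed signal of 14 microglia and macrophage markers was 34506 in the HC, 32668 in the OB, 539.4 in the SVZ and 342.6 in the VM. All 14 were below the floor in the VM, the culture with the highest Bnip3, Adm and Hif1a, and 2 were above it in the SVZ. By its main probe set Pfkp was high in the same HC and OB, but its second probe set did not form this pair. The part of these cells in Pfkp was not tested. The 13 fibroblast and meningeal markers summed to 57311 in the OB, 41702 in the VM, 23449 in the HC and 11592 in the SVZ, with 8 to 12 above the floor and Slc6a13 below it on every array. Of the 12 above the floor on at least 1 array, 7 were highest in the OB, 2 in the VM, 2 in the HC and 1 in the SVZ. That 1 was Islr, at 5941 in the SVZ and 2283 to 2736 elsewhere. P4ha2 had the same order of regions as the sum, though not as every marker, and the part of these cells in it was not tested. The 13 astrocyte markers summed to 37637 in the HC, 25276 in the SVZ, 24648 in the OB and 15039 in the VM. Between 10 and 12 were above the floor, and Slc1a2 was below it throughout. Of the 12 above the floor on at least 1 array, 6 were highest in the HC, 4 in the OB and 2 in the SVZ. Gfap, the astrocyte intermediate filament, read 10027 in the HC, 3112 in the SVZ, 3800.2 in the OB and 1007 in the VM. Aldh1l1 read 5106 in the SVZ and 1727 in the HC, and Gja1 9010 in the OB and 5550 in the HC. Ppp1r3c was highest in the HC, as was the astrocyte sum, and the part of astrocyte share in it was not tested. Aldoc is itself in this sum. The 9 pericyte and smooth muscle markers summed to 18515 to 20545, a sum made up mostly of Acta2 and Tagln, and single markers differed: Rgs5 read 655.1 in the OB and 46.8 to 163 elsewhere, and Cnn1 132.3 in the OB and 782.2 to 2105 elsewhere. Of 8 endothelial markers, Pecam1 included, 7 were below the floor on all arrays; Cdh5 read 254.5 in the VM, where Bnip3 and Adm were highest, and 17.1 to 111.4 elsewhere, and the part of such cells was not tested. Neuronal markers summed to 4800 in the SVZ and 661.5 to 1631 elsewhere, with 7 of 11 below the floor on all arrays. The SVZ sum was made up mostly of Stmn2, at 3465. Tubb3 was highest in the OB, at 123.4 against 76.4 in the SVZ. Ldhb was highest in the SVZ too, and the part of neuronal cells in it was not tested. The 8 oligodendrocyte markers summed to 6877 in the HC, 5699 in the SVZ, 2305 in the OB and 2009 in the VM, where Ndrg1 was also lowest. This sum was made up mostly of Olig1 and Cnp. Of the 6 markers above the floor on at least 1 array, 1 (Cnp) was lowest in the VM alone. Olig1 read 171.1 in the OB and 620.7 in the VM. The part of these cells in Ndrg1 was not tested. The 13 cell cycle markers summed to 10308 in the HC, 8969 in the SVZ, 7918 in the VM and 5364 in the OB. No marker of these lists was at 0 on any array.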

How the data were processed

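Gene expression of 4 primary astrocyte cultures was measured on Affymetrix mouse arrays, 1 per region, from 2 ug of total RNA each, per the labels. The deposited table gives a signal intensity per probe set on a linear scale; the authors made it with GCOS 1.4, per the submitters' processing notes, but no source used here gives the algorithm. The trimmed means show a scaling of each array to a common value, and intensities were used as deposited. Detection calls were not analysed here, so a floor at the median of all signals took their place. Precision is limited by the number of arrays.

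Of the probe sets, 20380 had 1 gene symbol in the platform annotation, 691 had several, 1555 were not listed and 64 were controls; 20351 of the 20380 matched a RefSeq gene by identifier. A gene was represented by its single-symbol probe set with the highest mean floored log2 signal; control probe sets were used for Gapdh only. Calls, spans and medians were computed with Python 3.11.15, numpy 2.4.6 and pandas 2.3.3, and the calling rule was checked on simulated data. Genes named are all members analysed and, of the 3 further lists, the 12 called genes with the widest gap, beside Ak4, Pygl, Phkg1 and Gys1, chosen once their values had been seen. The genes, lists and rules were chosen with earlier results of these data known. Alternatives changed the floor, the normalization, the probe set, the fold threshold, the members counted and the arrays compared.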

Additional observations from a re-analysis of the deposited data

How the results depend on the processing

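Leaving out the ventral mesencephalon array changed most: the hippocampus median of the hypoxia genes turned to 0.25, their subventricular zone median was -0.095, 4 of them spanned 2-fold and 3 were called, while 4 enzymes spanned 2-fold, 4 were called and the hippocampus enzyme median was -0.20; fewer arrays narrow a span by construction. Of all genes, 25.6% then spanned 2-fold and 16.1% were called, since a call against fewer regions is easier to reach. Without the subventricular zone array the enzyme median in the hippocampus was -0.25 and the hypoxia median in the olfactory bulb -0.34. Without the olfactory bulb array the subventricular zone medians were 0.13 for enzymes and -0.75 for hypoxia genes. The hypoxia median in the ventral mesencephalon was then 0.95 and 8 hypoxia genes were called, beside 14.7% of all genes. Without the hippocampus array 4 enzymes were called, beside 15.4% of all genes. The 1.5-fold threshold gave 13 enzymes that spanned it, 4 enzymes called and 13 hypoxia genes called, beside 59.3% and 26.0% of all genes. With the floor at the 70th percentile 1 enzyme was called, beside 7.48% of all genes, and the olfactory bulb hypoxia median was -0.27. Egln3 then missed its call in the subventricular zone at 1.51-fold. With the mean of all probe sets 1 enzyme was called, beside 7.79% of all genes. The hypoxia medians were then 0.88 in the ventral mesencephalon and -0.33 in the olfactory bulb. With probe sets without suffix, 7 enzymes remained to be counted. Of these 4 spanned 2-fold and 1 was called, beside 31.6% and 10.9% of all genes. Quantile normalization gave enzyme medians of 0.17 in the subventricular zone and -0.079 in the hippocampus. Where not named above, the cause was not tested. Over all alternatives the hypoxia median of the ventral mesencephalon ran from 0.88 to 1.22. Counting only genes above the floor on all arrays was chosen after seeing the data. Of the 8 calls, Pfkfb3 and Egln3 were lost under an alternative at 2-fold, while with all arrays the calls gained were Ddit4 higher in the ventral mesencephalon under quantile normalization (2.02-fold) and scaling to the 75th percentile (2.06-fold), Ero1a (2.53-fold, mean of probe sets) and Hif1a (2.15-fold, probe sets without suffix) higher there, Egln3 higher in the olfactory bulb (2.00-fold, mean of probe sets), and Slc16a3 (3.33-fold) and Pdk1 (2.37-fold) lower in the subventricular zone with the floor at the 25th percentile or none; others were gained when an array was left out. No paired analysis was possible because each region has 1 sample, and the labels link the groups only by replicate number 1. The series text speaks of littermate pups, so the cultures may share a litter. Signals near the floor, such as those of Pdk1, limit what their folds can show.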
